A study of Mus musculus with 15 samples.

Results

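The genes described here are the complement and coagulation genes of mouse liver, 46 genes in all, and they were compared between wild type liver, the liver around tumors and the tumors of mice that lack MAT1A. A gene was measured as the average of the probe sets whose only gene symbol is that gene. This gave values for 43 of the 46 genes, from 57 probe sets, among 12393 genes measured on the arrays. No such probe set was found for C3, Cfd and Cpb2, so these 3 genes are not analysed here. Of the 43 genes, 35 rest on 1 probe set and 8 on several.

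The RNA came from whole pieces of liver and was hybridized to Affymetrix arrays, 1 sample per array and 5 arrays in each group. Every mouse was 15 months old and of the C57B6SJL background. The wild type livers were labelled healthy. The other samples were MAT1A knockout liver with hepatocellular carcinoma, taken either from the tumor or from peritumoral tissue. Both kinds therefore share the knockout, and no liver of a knockout mouse without a tumor is among the samples used here. Mat1a encodes the enzyme that makes S-adenosylmethionine in adult liver. Levels are log2 values made by RMA, so a difference of 1 is a 2-fold difference. Levels of different genes cannot be compared, since they come from different probes.

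Complement is a chain of plasma proteins that tags and lyses microbes. It is started by C1q bound to antibody, by lectins bound to microbial sugars or by the alternative pathway, it is amplified by convertases, and it ends in the membrane attack complex. Coagulation is a second protease chain that turns fibrinogen into fibrin, held back by plasma inhibitors and undone by plasmin. Hepatocytes make most proteins of both chains. C1q is made mainly by macrophages, such as the Kupffer cells of the liver, while von Willebrand factor, factor VIII and tissue plasminogen activator come mainly from endothelial cells.

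Mat1a had a mean level of 12.53 ± 0.23 (SD, n = 5) in wild type liver, 9.52 ± 1.09 in peritumoral liver and 9.33 ± 1.06 in tumors, with all knockout samples below all wild type samples. The array medians lay between 5.47 and 5.68. Of the arrays, 4 stood apart from the others of their group along the first 2 principal components, which held 32.67% and 17.1% of the variance. These are replicate 4 of wild type liver, replicate 2 of each knockout group and tumor replicate 5, and the fourth is left out only where named. Counts of genes that passed are given with and without them, as are the values of some single genes, a choice made after the data were seen. Alb, which defines hepatocytes, lay between 14.46 and 14.70 in the 15 arrays. This is near the highest values of the arrays, at 14.60 to 14.86, where a difference may not show. None of the 12 hepatocyte markers measured passed the test in any comparison. In bulk tissue, fewer cells of a type and less RNA per cell cannot be told apart.

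Tumors were compared with wild type liver by limma, and a gene passed at an adjusted p under 0.05 (Benjamini-Hochberg, over 12393 genes). Of the 43 genes 3 fell, none rose and 40 did not pass. The 3 were Masp2, the protease that starts the lectin pathway, C9, which forms the pore of the membrane attack complex, and F7, the factor that starts coagulation together with tissue factor. Over all genes, 0.226% fell and 0.339% rose in this comparison. Before adjustment, 16 of the 43 had a p under 0.05, of which 15 were lower and 1 was higher in tumors, beside 9.96% and 7.46% of all genes. The median log2 ratio of tumor to wild type was -0.26 over the 43 genes and -0.05 over all genes, and 33 of the 43 ratios were below 0, beside 59% of all. In 12 of the 43 genes all 5 tumors lay below all 5 wild type livers, and in 1 gene, Plat, all lay above. Over all genes these shares were 2.84% and 2.23%.

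Peritumoral liver was set against the same wild type arrays, so both comparisons share their controls. None of the 43 genes passed, beside 0.0403% of all genes. Before adjustment 9 had a p under 0.05, of which 7 were lower and 2 were higher, beside 9.88% and 5.18% of all genes. In 3 genes, Masp2, C6 and C9, all peritumoral samples lay below all wild type samples, beside 2.08% of all genes. The median log2 ratio was -0.04 over the 43 genes and -0.06 over all genes.

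**Figure D1:**
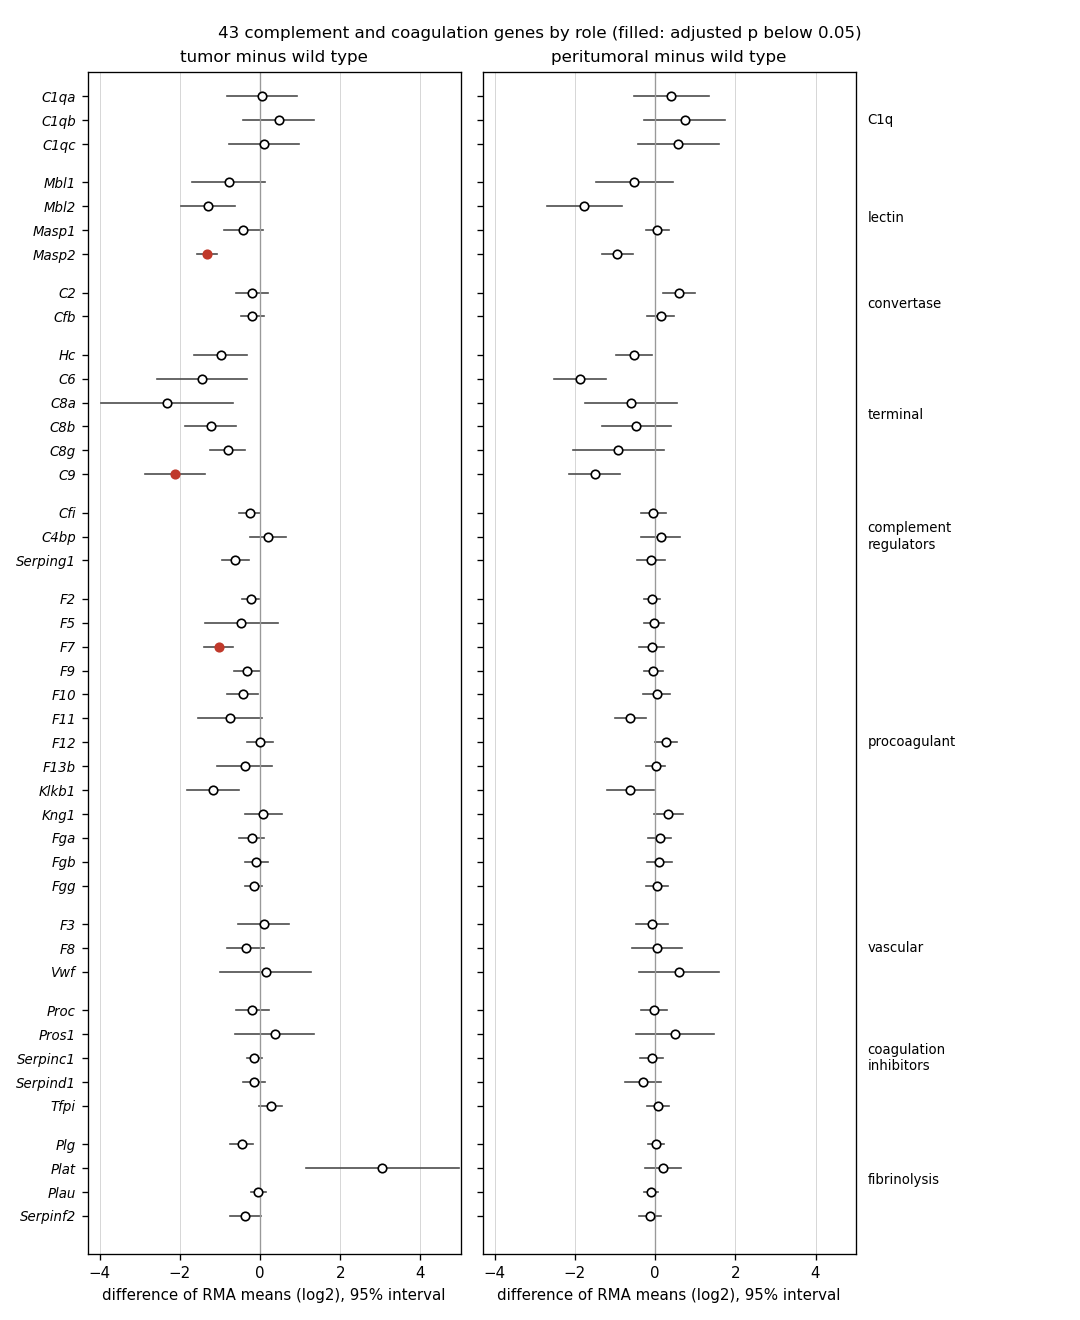
Log2 difference from wild type liver of the 43 genes, grouped by role, for tumors (left) and peritumoral liver (right), with 5 arrays in each group; points are differences of means, lines are 95% confidence intervals of the limma fit, and filled points have an adjusted p below 0.05. Masp2, C9 and F7 are the filled points, all in the tumor panel, where the 4 lectin and 6 terminal genes lie to the left of the 5 inhibitors of coagulation.

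The regions at the starts of Masp2, C9 and F7 are shown because these are the genes that fell in tumors. They run from 250 bases before the start of transcription to 50 bases after it, are taken from RefSeq on build GRCm38.p6 and lie on the plus strand, at chr4:148602294-148602593 for Masp2, chr15:6445096-6445395 for C9 and chr8:13025784-13026083 for F7. Capitals mark a match to TTGCNNAA, a core of the sites bound by the C/EBP factors of liver.
Masp2: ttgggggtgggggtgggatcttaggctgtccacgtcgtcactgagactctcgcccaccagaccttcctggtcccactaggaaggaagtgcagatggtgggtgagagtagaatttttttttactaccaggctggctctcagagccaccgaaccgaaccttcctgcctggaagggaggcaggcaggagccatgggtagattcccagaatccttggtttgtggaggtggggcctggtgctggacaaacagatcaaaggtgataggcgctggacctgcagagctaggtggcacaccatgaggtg
C9: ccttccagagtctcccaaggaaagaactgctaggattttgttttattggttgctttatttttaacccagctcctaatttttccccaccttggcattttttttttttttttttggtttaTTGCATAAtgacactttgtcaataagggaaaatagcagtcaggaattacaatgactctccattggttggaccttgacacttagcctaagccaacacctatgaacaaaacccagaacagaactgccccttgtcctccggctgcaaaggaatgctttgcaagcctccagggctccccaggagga
F7: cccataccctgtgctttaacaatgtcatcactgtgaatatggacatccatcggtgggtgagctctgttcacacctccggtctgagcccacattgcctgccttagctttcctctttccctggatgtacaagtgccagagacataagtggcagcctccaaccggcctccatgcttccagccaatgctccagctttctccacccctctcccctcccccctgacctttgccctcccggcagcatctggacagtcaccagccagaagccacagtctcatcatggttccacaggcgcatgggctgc

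The C9 region holds 1 such match and those of Masp2 and F7 hold none. RefSeq promoters of this length were available for 31 of the 43 genes. A gene was counted when any of its promoters held a match, while the share over all is of single promoters, so the units differ. Read on both strands, TTGCNNAA was found in 7 of the 31 (22.6%) and in 10.8% of 32851 promoters. GTTAATNAT, a core of the sites of HNF1, was found in 4 of the 31 (12.9%), namely C4bp, F13b, Fga and Hc, and in 0.801% of all promoters. CAAAGTCCA, a core of the sites of HNF4, was found in none of the 31 and in 0.475% of all. A match describes the letters alone, and no match says only that these letters are not in the window.

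All 4 lectin pathway genes had a ratio below 0 in tumors, and 1 of them fell. Mannose-binding lectins, encoded by Mbl1 and Mbl2, bind sugars on microbes and carry the proteases encoded by Masp1 and Masp2, of which Masp2 cleaves C4 and C2. The gene that fell was Masp2, and the median log2 ratio of the 4 was -1.04 in tumors and -0.73 in peritumoral liver.

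Masp2 was measured at 9.67, 9.37, 9.48, 9.30 and 9.66 in the wild type livers. The peritumoral samples had 9.03, 7.98, 8.51, 8.68 and 8.58, and the tumors 8.13, 8.14, 8.29, 7.93 and 8.34. Every knockout sample was below every wild type sample, and the tumors were close to each other. Of the peritumoral samples only replicate 2 lay within the range of the tumors, and the others were above every tumor. The log2 ratio of tumor to wild type was -1.33 (SE 0.11, adjusted p = 0.000995), a level 2.52-fold lower. In peritumoral liver it was -0.94 (SE 0.17, adjusted p = 0.0787), and it passed without wild type replicate 4 (adjusted p = 0.0369) or without peritumoral replicate 2 (adjusted p = 0.0278). Over all genes 2.15% passed without the former and 0.549% without the latter, beside 0.0403% with all arrays. The same shares stand beside the calls of C9 and C6 below. Masp2 has 2 probe sets, whose tumor minus wild type differences were -0.93 and -1.73. With the brighter of them alone, the ratio in tumors was -0.93 and did not pass (adjusted p = 0.0630).

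Mbl2 did not pass in either comparison, and is described outside the rule for named genes because of its low peritumoral values. Its level was 12.30, 12.12, 12.17, 11.89 and 12.09 in wild type liver and 11.29, 10.18, 9.95, 11.02 and 11.69 in tumors, without overlap. The peritumoral samples had 10.34, 9.03, 10.27, 10.08 and 11.98, of which only the fifth was within the wild type range. The log2 ratio was -1.29 (SE 0.30, adjusted p = 0.0826) in tumors and -1.77 (SE 0.42, adjusted p = 0.148) in peritumoral liver. In tumors it passed without tumor replicate 5 (adjusted p = 0.0426) or without the 4 arrays that stand apart (adjusted p = 0.0207), and in peritumoral liver without peritumoral replicate 5 (adjusted p = 0.0190). Mbl1, likewise outside the rule, had a ratio of -0.79 in tumors (SE 0.41, adjusted p = 0.352), which was -0.33 without tumor replicate 2, the lowest tumor at 8.73. All tumors lay below wild type liver, the highest at 11.14 against a lowest wild type value of 11.15. Masp1 had a ratio of -0.42 (SE 0.22, adjusted p = 0.350), and its 5 probe sets differed by -1.24 to 0.05 between tumors and wild type liver.

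The 6 terminal pathway genes all had a ratio below 0 in tumors, and 1 of them fell. They are Hc, which encodes C5, C6, the 3 chains of C8 and C9. The ratios ran from -2.33 to -0.80 with a median of -1.34, and all 6 had an unadjusted p under 0.05, but only C9 passed after adjustment. In 5 of the 6 genes, all but C8g, the tumors lay below wild type liver without overlap. In peritumoral liver the 6 ratios were also below 0, with a median of -0.76, and none passed.

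C9 was measured at 13.001, 12.864, 12.983, 12.422 and 12.491 in wild type liver. In peritumoral liver the values were 11.13, 10.15, 11.78, 11.49 and 11.68, and in tumors 9.87, 10.03, 11.88, 10.53 and 10.83. Both knockout groups lay below wild type liver without overlap, and they overlapped with each other, since tumor replicate 3 was above every peritumoral sample. The log2 ratio was -2.12 in tumors (SE 0.34, adjusted p = 0.0346), a level 4.36-fold lower. It was -1.51 in peritumoral liver (SE 0.29, adjusted p = 0.0823), which passed without wild type replicate 4 (adjusted p = 0.0407) or without peritumoral replicate 2 (adjusted p = 0.0153). The call in tumors needed replicates 1, 2, 3 and 5 of wild type liver and tumor replicates 1 and 4, each of which ended it when left out, while the ratio stayed between -2.44 and -1.93 in all 20 alternatives tried.

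C8a, the alpha chain of C8, had the lowest log2 ratio of the 43 genes in tumors. Its values were 12.68, 12.68, 12.76, 12.55 and 12.35 in wild type liver and 10.50, 7.05, 11.75, 11.30 and 10.79 in tumors. The groups did not overlap, and tumor replicate 2 was far below the other tumors. The ratio was -2.33 (SE 0.74, adjusted p = 0.163) and became -1.52 with an adjusted p of 0.0227 without that tumor. Peritumoral liver had 12.79, 9.72, 12.15, 12.65 and 12.67, where replicate 2 was again the lowest. The peritumoral ratio of -0.61 (SE 0.52, adjusted p = 0.556) was -0.04 without it.

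C6 was lower in the peritumoral samples than in most tumors, and it is described outside the rule for named genes. Wild type liver had 10.31, 10.62, 10.43, 10.60 and 10.15, and peritumoral liver 8.56, 7.34, 8.77, 8.94 and 9.12. The tumors had 9.78, 8.64, 9.57, 9.96 and 6.90, so both groups were below wild type liver without overlap. The log2 ratio to wild type was -1.87 in peritumoral liver (SE 0.29, adjusted p = 0.0598), and it passed without wild type replicate 4 (adjusted p = 0.0335) or without peritumoral replicate 2 (adjusted p = 0.00102). In tumors it was -1.45 (SE 0.51, adjusted p = 0.192), and -0.93 without tumor replicate 5. The remaining 3 genes, Hc, C8b and C8g, had ratios between -1.23 and -0.80 in tumors and between -0.92 and -0.47 in peritumoral liver.

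**Figure D2:**
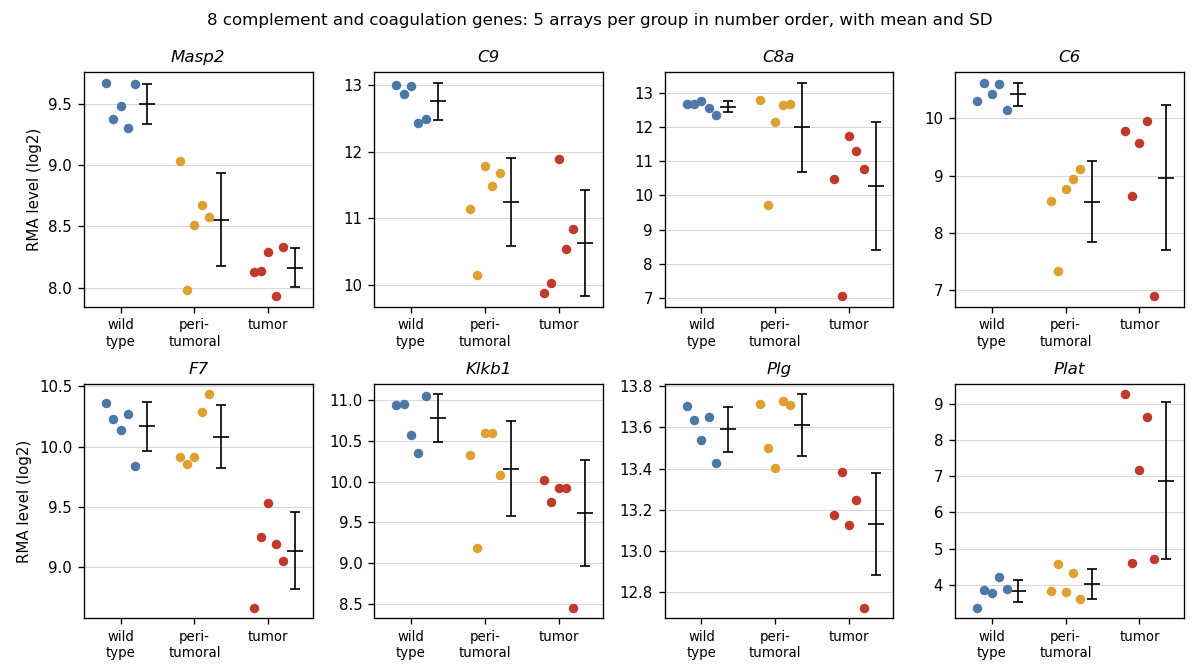
RMA levels on the log2 scale of 8 genes in wild type liver, peritumoral liver and tumors; each point is 1 array in the order of its number, and bars give the mean and SD of 5 arrays, on axes that differ between genes. Masp2, C9 and C6 were lower in both knockout groups, F7 and Plg were lower in tumors alone without overlap, and Plat reached 9.25 in tumor replicate 1.

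None of the 5 genes of the convertases and the complement regulators passed in any comparison. C2, which supplies the protease of the classical and lectin convertase, had 9.27, 9.29, 8.99, 9.55 and 8.86 in wild type liver, 9.79, 9.86, 9.29, 9.76 and 10.25 in peritumoral liver and 9.21, 8.97, 9.26, 9.12 and 8.42 in tumors. The peritumoral samples were all above the tumors and overlapped with wild type liver. The log2 ratio to wild type was -0.20 in tumors (SE 0.18, adjusted p = 0.592), where it was 0.09 without the 4 arrays that stand apart. In peritumoral liver it was 0.60 (SE 0.18, adjusted p = 0.214). Cfb, the protease of the alternative convertase, had ratios of -0.19 and 0.15.

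Serping1, the inhibitor of the C1 proteases and of kallikrein, was 12.67, 12.76, 12.81, 13.11 and 12.54 in wild type liver and 12.28, 11.87, 12.44, 12.40 and 11.84 in tumors, without overlap. Its ratio of -0.61 (SE 0.16) did not pass (adjusted p = 0.0975), and in peritumoral liver the ratio was -0.10 (adjusted p = 0.747). C4bp, a cofactor in the breakdown of C4b, had 11.77, 11.86, 11.95, 12.72 and 11.88 in wild type liver and 12.18, 11.84, 12.23, 12.30 and 12.65 in tumors. The groups overlapped, and wild type replicate 4 was the highest of all. The ratio was 0.20 (SE 0.20, adjusted p = 0.619), and 0.37 without that array (adjusted p = 0.195). Cfi, the protease that cleaves C3b and C4b, had ratios of -0.26 and -0.05.

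Among the procoagulant genes 1 of 13 fell in tumors, 12 had a ratio below 0 and the median was -0.34. The median in peritumoral liver was 0.02, with 6 of 13 ratios below 0. F7 was 10.36, 10.23, 10.14, 10.27 and 9.84 in wild type liver, 9.92, 9.85, 9.92, 10.29 and 10.43 in peritumoral liver and 8.66, 9.25, 9.53, 9.19 and 9.05 in tumors. Tumors lay below both other groups without overlap, and peritumoral liver overlapped with wild type liver. The log2 ratio of tumor to wild type was -1.03 (SE 0.16, adjusted p = 0.0343), a level 2.04-fold lower, and that of peritumoral to wild type liver was -0.09 (95% confidence interval -0.40 to 0.23, adjusted p = 0.766). Leaving out replicate 1, 2, 3 or 5 of wild type liver or tumor replicate 4 ended the call, while the ratio stayed between -1.13 and -0.91 in all 20 alternatives.

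Klkb1, plasma prekallikrein of the contact system, had the lowest ratio of the class. It was 10.95, 10.95, 10.58, 10.36 and 11.05 in wild type liver and 10.02, 9.75, 9.92, 9.93 and 8.45 in tumors, without overlap. The ratio of -1.16 (SE 0.29) did not pass (adjusted p = 0.0949), and without tumor replicate 5, the lowest, it was -0.87 and passed (adjusted p = 0.0426). In peritumoral liver the ratio was -0.62 (SE 0.26, adjusted p = 0.310). Kng1, the kininogen that prekallikrein binds and cleaves, had the highest ratio of the class, 0.08 (SE 0.21, adjusted p = 0.861). Its tumors at 12.25, 13.20, 12.31, 12.38 and 12.58 overlapped with wild type liver at 12.39, 12.37, 12.31, 13.03 and 12.21, and the sign turned without tumor replicate 2 (-0.08).

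None of the genes of the last steps of clotting passed. F2, prothrombin, and Fga, Fgb and Fgg, the 3 chains of fibrinogen, had ratios of -0.24, -0.21, -0.09 and -0.16 in tumors and of -0.08, 0.11, 0.11 and 0.05 in peritumoral liver. The 95% confidence intervals of the tumor ratios reached down to -0.45, -0.52, -0.38 and -0.39. Their wild type means of 13.09, 13.52, 14.05 and 14.02 lay toward the highest values of the arrays, where a difference may not show. F9 and F10, the proteases of the tenase step and of prothrombin cleavage, had tumor ratios of -0.34 and -0.44, F5, the cofactor of factor X, -0.47, and F11, which activates factor IX, -0.75. Tumor replicate 5 was the lowest tumor for F5 (8.81) and the highest for F11 (9.48). Without it the ratio of F5 was -0.06, and 0.02 without the 4 arrays that stand apart. Without it that of F11 was -1.13, which passed (adjusted p = 0.00873). F12, which starts the contact system, had a ratio of 0.00, and F13b, the carrier chain of factor XIII, -0.38. The 3 probe sets of F10 differed by -0.58, -0.56 and -0.16 between tumors and wild type liver, the last being the brightest.

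The 3 genes of tissue and vessel walls did not pass. Vwf, which tethers platelets and carries factor VIII, had 4.98, 5.21, 5.20, 6.45 and 4.98 in wild type liver, 5.35, 7.47, 5.11, 6.35 and 5.53 in peritumoral liver and 4.78, 7.24, 5.96, 5.21 and 4.33 in tumors. The groups overlapped, and the highest array of each group was the one that stands apart (wild type 4, peritumoral 2, tumor 2). The tumor ratio was 0.14 (SE 0.52, adjusted p = 0.908) and -0.02 without those 3 arrays. F8, the cofactor of factor IX, had 5.95, 6.46, 5.96, 6.13 and 6.34 in wild type liver and 6.11, 5.07, 6.09, 6.08 and 5.68 in tumors, with a ratio of -0.36 (SE 0.21, adjusted p = 0.396). F3, tissue factor, was at 3.71 to 4.71 in wild type liver and at 3.77 to 5.25 in tumors, near the lowest values of the arrays at 2.61 to 2.78.

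The inhibitors of coagulation were set against the factors they hold back. None of the 5 passed in any comparison. Their tumor ratios ran from -0.19 to 0.37 with a median of -0.14, and the peritumoral ratios from -0.30 to 0.50 with a median of -0.04.

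Serpinc1, antithrombin, was 13.48, 13.47, 13.34, 13.45 and 13.39 in wild type liver, 13.52, 12.83, 13.46, 13.51 and 13.37 in peritumoral liver and 13.35, 13.22, 13.23, 13.45 and 13.19 in tumors. Its groups overlapped, with a tumor ratio of -0.14 (SE 0.08, 95% confidence interval -0.32 to 0.04, adjusted p = 0.404). These levels, too, lie toward the highest values of the arrays, where a difference may not show. Serpind1, heparin cofactor II, was 11.86, 11.80, 11.75, 11.78 and 11.71 in wild type liver and 11.37, 11.78, 11.43, 11.58 and 12.02 in tumors, with a ratio of -0.14 (SE 0.13, 95% confidence interval -0.42 to 0.14, adjusted p = 0.572). Tumor replicate 5 was above all wild type samples and the other tumors were within or below their range. Proc, protein C, which inactivates factors V and VIII, was 11.79, 11.83, 11.67, 11.77 and 11.83 in wild type liver and 11.75, 12.09, 11.28, 11.82 and 11.01 in tumors, with a ratio of -0.19 (SE 0.19, 95% confidence interval -0.60 to 0.23, adjusted p = 0.615).

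Pros1, protein S, the cofactor of protein C, was the least even of the 5. It was 8.23, 8.18, 8.03, 9.60 and 8.07 in wild type liver, 8.39, 10.43, 8.12, 8.79 and 8.88 in peritumoral liver and 8.95, 10.12, 8.48, 8.73 and 7.66 in tumors. The same 3 arrays were again the highest of their groups. The tumor ratio was 0.37 (SE 0.44, 95% confidence interval -0.62 to 1.35, adjusted p = 0.684), and 0.60 without the 4 arrays that stand apart, where it passed (adjusted p = 0.0252). Tfpi, the inhibitor of factor VIIa and tissue factor, was 5.15, 4.96, 4.99, 5.50 and 5.17 in wild type liver and 5.36, 5.47, 5.56, 5.12 and 5.59 in tumors, with a ratio of 0.26 (SE 0.13, 95% confidence interval -0.03 to 0.56, adjusted p = 0.325). The tumors and wild type livers overlapped for both genes.

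Of the 4 genes of fibrinolysis none passed. Plat, tissue plasminogen activator, was 3.38, 3.87, 3.79, 4.23 and 3.89 in wild type liver, near the lowest values of the arrays, and 3.84, 4.57, 3.81, 4.32 and 3.61 in peritumoral liver. The tumors had 9.25, 4.62, 7.16, 8.63 and 4.72. All 5 tumors were above all other samples, 3 of them far above and 2 of them close. The log2 ratio to wild type was 3.04 (SE 0.86, adjusted p = 0.126). This scale may understate a change from a level so close to the floor, which was not tested. Without the same 3 arrays it was 3.71 and passed (adjusted p = 0.0484), and without all 4 it was 4.61 (adjusted p = 0.00103).

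Plg, the plasminogen that Plat activates, was 13.70, 13.64, 13.54, 13.65 and 13.43 in wild type liver, 13.72, 13.50, 13.40, 13.73 and 13.71 in peritumoral liver and 13.18, 13.38, 13.13, 13.25 and 12.73 in tumors. The tumors were below both other groups without overlap. The tumor ratio was -0.46 (SE 0.13, adjusted p = 0.116) and the peritumoral ratio 0.02. Serpinf2, the inhibitor of plasmin, had a tumor ratio of -0.37 (adjusted p = 0.303). Plau, the other plasminogen activator, lay between 3.34 and 3.77 in all groups, near the lowest values.

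C1q differed from the hepatocyte-made complement genes in that its spread within wild type liver was large. C1qa, C1qb and C1qc encode the 3 chains of C1q, and none passed in any comparison. C1qa was 9.70, 10.02, 9.11, 10.76 and 8.49 in wild type liver, 9.81, 10.94, 9.23, 9.94 and 10.19 in peritumoral liver and 9.67, 9.66, 10.37, 9.60 and 9.07 in tumors. C1qb was 8.98, 9.47, 8.47, 10.47 and 7.99 in wild type liver, 9.92, 10.75, 9.04, 9.42 and 9.95 in peritumoral liver and 9.40, 9.68, 9.96, 9.47 and 9.21 in tumors. The tumors and peritumoral samples lay within the wild type range, except peritumoral replicate 2, which was the highest of all for both genes.

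C1qc was 9.31, 9.71, 8.76, 10.45 and 8.16 in wild type liver, 9.63, 10.91, 8.89, 9.71 and 10.13 in peritumoral liver and 9.39, 9.55, 9.92, 9.34 and 8.70 in tumors. Wild type replicate 4 was the highest and replicate 5 the lowest wild type array for all 3 chains, which moved together. The tumor ratios were 0.06 (SE 0.39, 95% confidence interval -0.81 to 0.93) for C1qa, 0.47 (SE 0.40, interval -0.42 to 1.35) for C1qb and 0.11 (SE 0.39, interval -0.77 to 0.98) for C1qc, with adjusted p-values of 0.953, 0.562 and 0.910. The peritumoral ratios were 0.41, 0.74 and 0.58, with adjusted p-values of 0.628, 0.443 and 0.531. Leaving out 1 array at a time turned the sign of C1qa and C1qc in tumors, with ranges of -0.23 to 0.34 and -0.17 to 0.40.

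Macrophage markers moved with C1q in wild type liver. Over 14 markers, the mean log2 ratio to the wild type mean was highest in wild type replicate 4 (1.02) and lowest in replicate 5 (-0.99), and that of C1q was 1.24 and -1.11 in the same arrays. Granulocyte markers were also highest in replicate 4, with a mean ratio of 3.97. In tumors the macrophage markers had a median ratio of -0.53 and none passed, with Cd68 at 1.62, Cd163 at -2.03 and Clec4f at -1.28, while C1q had a median of 0.11. The part of macrophage number in the C1q levels was not tested.

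**Figure D3:**
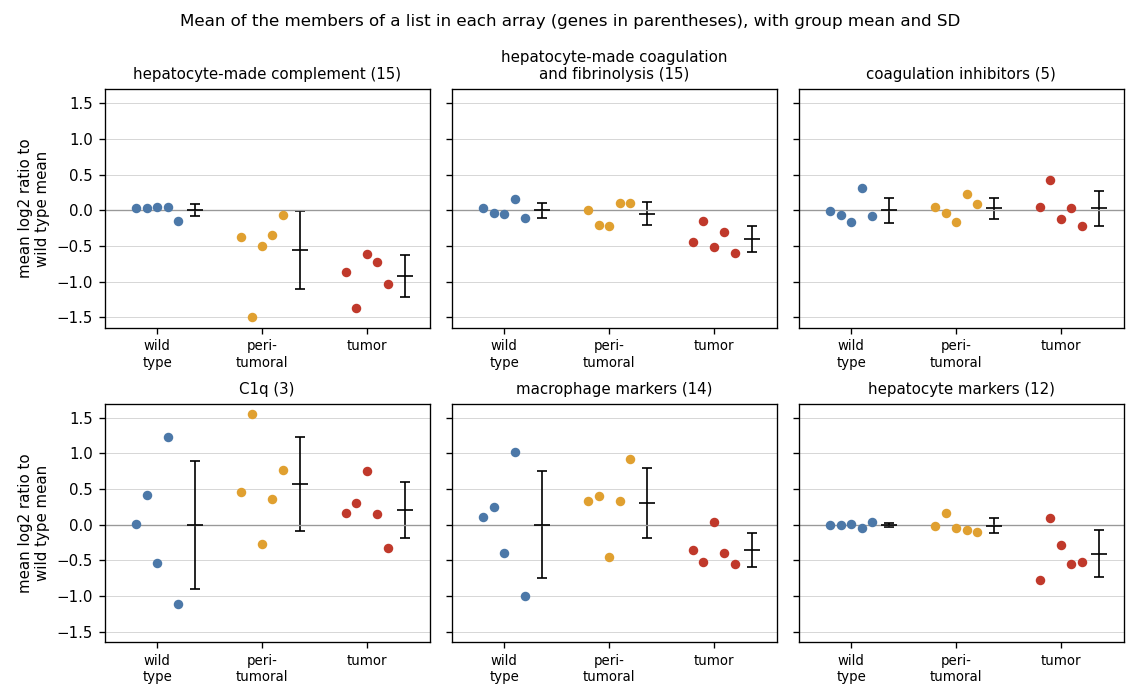
Mean over the genes of a list of the log2 ratio to the wild type mean, in each of the 15 arrays; points are arrays in the order of their number, and bars give the mean and SD of 5 arrays. The 15 hepatocyte-made complement genes lay between -1.37 and -0.61 in tumors and between -1.49 and -0.07 in peritumoral liver, the 5 inhibitors of coagulation overlapped between all groups, and the 3 C1q genes spread widely in wild type liver.

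Set side by side, the hepatocyte-made factors had a lower median ratio in tumors than C1q and the inhibitors of coagulation. Of 30 hepatocyte-made factors 3 fell, 28 had a tumor ratio below 0 and the median was -0.45, against 0.11 for the 3 C1q genes and -0.14 for the 5 inhibitors. These inhibitors were listed apart by role, not by the cell that makes them, and Serping1 and Serpinf2, also inhibitors, are among the 30. Serpinc1, Serpind1 and Proc had tumor ratios of -0.14, -0.14 and -0.19, and Pros1 and Tfpi of 0.37 and 0.26. Within the 30, the 15 complement genes had a median of -0.80 in tumors and -0.52 in peritumoral liver. The 15 genes of coagulation and fibrinolysis had medians of -0.37 and 0.02. The difference between these lists was not tested. The tumor median of C1q changed its sign when wild type replicate 3, wild type replicate 5 or tumor replicate 3 was dropped. Without all 4 arrays that stand apart the tumor medians were -0.36 for the hepatocyte-made factors, 0.57 for C1q and -0.08 for the inhibitors.

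The 12 hepatocyte markers had a median tumor ratio of -0.38, close to that of the hepatocyte-made factors, and a median of -0.04 in peritumoral liver. Their mean ratio per array ran from -0.77 to 0.10 in tumors and from -0.10 to 0.17 in peritumoral liver. Tumor replicate 2 had the highest value of the tumors for these markers (0.10) and the lowest for the hepatocyte-made complement genes (-1.37). Peritumoral replicate 2 likewise had 0.17 and -1.49. For the 15 hepatocyte-made genes of coagulation and fibrinolysis, tumor replicate 2 was instead the highest tumor (-0.15), as for the markers. Peritumoral replicate 2 had -0.21 there. Alb, Ttr, Apoa1 and Hpx had tumor ratios of -0.03, -0.04, 0.01 and -0.06, and Apob, Cps1 and Arg1 of -0.97, -0.95 and -0.85. The part of hepatocyte content in the levels of the factors was not tested. Other marker lists had median tumor ratios of -0.74 (9 granulocyte genes), -0.35 (12 endothelial), 0.21 (5 bile duct), -0.08 (9 stellate), -0.16 (9 lymphocyte) and -0.16 (4 erythroid). Of all these markers only Emcn, a surface protein of endothelial cells, passed (ratio 1.67, adjusted p = 0.0461). Liver transcription factors, such as Hnf4a and Cebpa, had a median of -0.27 over 14 genes, and none passed.

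Tumors were also compared with peritumoral liver, where both groups lack MAT1A. None of the 43 genes passed, with or without pairing by number, beside 0.0161% of all genes. Before adjustment 8 had a p under 0.05, of which 7 were lower and 1 was higher in tumors, beside 4.63% and 4.65% of all genes. The median log2 ratio of tumor to peritumoral liver was -0.27 over the 43 genes and 0.02 over all genes. In 3 genes, C2, F7 and Plg, all tumors lay below all peritumoral samples, beside 1.11% of all genes, and in 1, Plat, all lay above, beside 1.22%.

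In pairs of equal number, 8 of the 43 genes were lower in all 5 tumors, beside 7.03% of all genes, and 1 was higher in all 5, beside 6.42%. The 8 were F7, C8a, Plg, C2, Serping1, Masp1, Mbl1 and F2. With the number as a block, F7 was lower by 0.38 to 1.38 on the log2 scale in the 5 pairs, with a ratio of -0.94 (SE 0.17, adjusted p = 0.162). C8a was lower by 0.40 to 2.66, with a ratio of -1.72 (SE 0.32, adjusted p = 0.162). The blocked ratios of Plg and C2 were -0.48 (SE 0.14, adjusted p = 0.252) and -0.80 (SE 0.24, adjusted p = 0.260). Plat was higher in all 5, with differences of 5.41, 0.05, 3.35, 4.31 and 1.12. C6 was higher in 4 of the 5 tumors, by 0.80 to 1.30, with a difference of -2.22 in pair 5. All 13 procoagulant genes had a ratio below 0, from -0.94 to -0.13, beside 46% of all genes, and of these only F7 did not overlap.

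**Figure D4:**
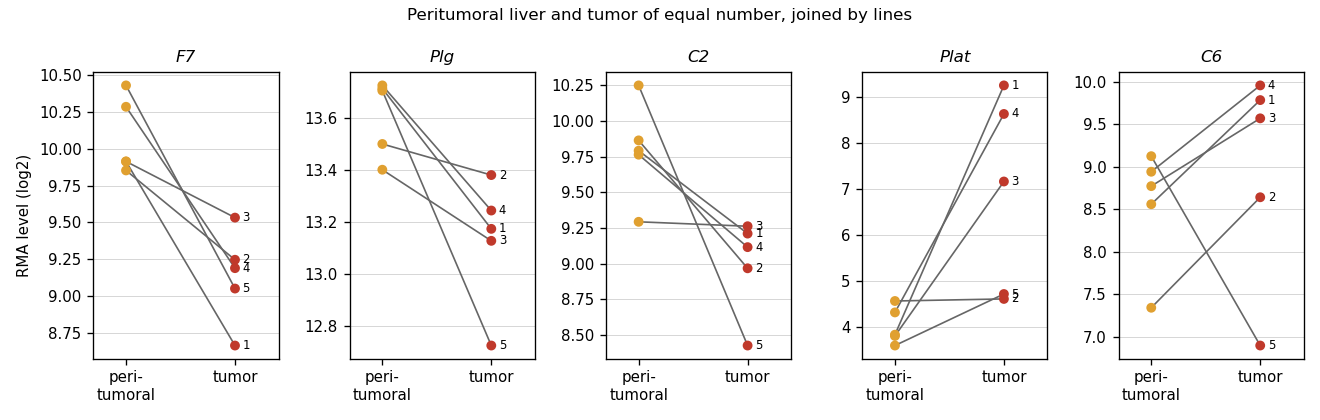
RMA levels on the log2 scale of 5 genes in peritumoral liver and tumor; each line joins the 2 samples of equal number, the number stands beside the tumor, and axes differ between genes. F7, Plg and C2 were lower and Plat was higher in the tumor of all 5 pairs, while C6 was higher in 4 pairs and lower in pair 5.

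Of 55 other genes of both pathways, 37 were measured and none passed in any comparison. In tumors 28 of the 37 had a ratio below 0, with a median of -0.16, where 59% of all genes were below 0 with a median of -0.05. An unadjusted p under 0.05 was found for 8 that were lower and 1 that was higher, beside 9.96% and 7.46% of all genes. In peritumoral liver 24 of the 37 were below 0 and the median was -0.07, close to the 61.1% and -0.06 of all genes.

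Without 3 of the arrays that stand apart (wild type 4, peritumoral 2 and tumor 2), 7 of the 43 genes passed in tumors. Those lower were Masp2, C8a, C8b, C8g, C9 and F7, beside 2.02% of all genes, and that higher was Plat, beside 2.57%. In peritumoral liver 6 passed, namely Mbl2, Masp2, C6, C8g and C9, which were lower beside 3.91% of all genes, and C4bp, which was higher beside 3.82%. Without tumor replicate 5 as well, 13 genes were lower and 3 higher in tumors, beside 5.62% and 5.93% of all genes. The 13 lower were Mbl2, Masp2, C6, C8a, C8b, C8g, C9, F7, F10, F11, Klkb1, Plg and Serpinf2. The 3 higher were C4bp, Pros1 and Plat. Against peritumoral liver, C6 and Plat were then higher in tumors, beside 0.807% of all genes.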

How the data were processed

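Total RNA of 15 mouse liver and tumor samples was labelled and hybridized to Affymetrix arrays. Per the labels, scanning was done with GCOS 1.4, and the deposited log2 values are RMA summaries of each probe set, after background correction and quantile normalization by the authors. The genome build is not given in the sources used here. The ratio columns that the authors deposited were not used. Of 22690 probe sets, those with several gene symbols (691), with none (1606) and any of the 64 controls were left out, and the other 20380 were averaged into 12393 genes. Arrays have no read depth, and their number limits the precision.

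The test was that of limma 3.58.1 under R 4.3.3, in which lmFit and eBayes took the 2 groups of a comparison alone, with no covariate and with Benjamini-Hochberg adjustment over all genes. The fit was tested on simulated data. A gene passed at an adjusted p under 0.05. Lists are described by counts and medians, without a test. The members and lists were chosen with earlier results of these data known. Values in full are given for genes that passed, the C1q genes, the coagulation inhibitors and the largest rise and fall of each class, and other genes with values are marked as outside this rule. The labels number the samples but do not say which come from 1 animal, so p-values measure only the spread between these samples. No 2 arrays were identical.

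Tumors and peritumoral samples of equal number deviated together from their group means. The correlations across genes were 0.353, 0.673, 0.271, 0.308 and 0.117, all over 0.1, so they were taken as paired on the data alone. Tumor replicate 4, however, correlated best with peritumoral replicate 1. With wild type arrays the correlations were between -0.223 and 0.207, and those comparisons are unpaired. Peritumoral replicates 1 and 3 reached 0.186 and 0.207 there, above pair 5, so the cut at 0.1 does not establish every pair. The alternatives were another choice of probe set, removal of probe sets marked as cross-hybridizing, 1 fit over the 3 groups, the number as a block, arrays centred on their medians, the lowest 40% of genes left out, a variance trend, array weights and each array left out in turn. Leaving out 3 or 4 arrays that stand apart was chosen after the data were seen. Promoters are those of RefSeq.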

Additional observations from a re-analysis of the deposited data

Results flagged for a closer look

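In each group of 5 arrays, the highest or lowest value of a gene was called far from the others when its gap to the nearest exceeded 0.71 of the range. This held for 21 of 129 groups (16.3%), where chance gives about 1 in 20 for independent and normal values. The same arrays recur, so the groups are not independent, and the share over all genes was not computed. The count is therefore not a result about these genes. The arrays concerned were mostly wild type replicate 4, peritumoral replicate 2 and tumor replicates 2 and 5.

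Wild type replicate 4 was the highest wild type array for Masp1 (7.20), C4bp (12.72), F5 (11.22), Kng1 (13.03), Vwf (6.45) and Pros1 (9.60), and the lowest for C8g (11.75). It also had the highest granulocyte and macrophage marker levels of the wild type arrays. Peritumoral replicate 2 was the lowest peritumoral array for Mbl1 (8.88), C8a (9.72), C8b (8.70), C8g (9.32), Serpinc1 (12.83) and Serpind1 (10.63), and peritumoral replicate 3 for Serpinf2 (11.94). All of these are log2 levels.

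Tumor replicate 2 was the lowest tumor for Mbl1 (8.73) and C8a (7.05). Tumor replicate 5 was the lowest for Cfb (11.51), Hc (10.60) and Klkb1 (8.45) and the highest for F11 (9.48), and tumor replicate 3 was the highest for F3 (5.25). Mbl1 and C8a were low in the tumor and the peritumoral sample of number 2 alike.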

How the results depend on the processing

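In tumors against wild type liver 3 genes passed. The number was 1 with the replicate number as a block (0.0807% of all genes), which does not pair these samples, and 16 with array weights (14.8%). It was 7 without the 3 arrays that stand apart (4.59%), 16 without 4 of them (11.5%), and 1 to 6 with 1 array left out (0.0807% to 2.57%). Genes whose tumors all lay below wild type liver were 12 (2.84% of all genes), and 19 without the 4 arrays (18.4%), where fewer arrays make such a separation more frequent. In peritumoral liver none passed, while 1 did with all 3 groups in 1 fit (0.0968% of all genes) and 7 with array weights (8.73%). The number there was 6 without the 3 or the 4 arrays (7.73%), and 0 to 3 with 1 array left out (0.0323% to 2.15%). In tumors against peritumoral liver none passed, with the block for pairing by number (0) as without it. With all groups in 1 fit 1 passed (F7, beside 0.331% of all genes), 7 with array weights (5.43%) and 2 without the 4 arrays (both higher, beside 0.807%). The cause was not tested. Masp2 passed in 19 of 20 alternatives (adjusted p from 3.18e-05 to 0.0630), C9 in 13 (0.000702 to 0.135) and F7 in 14 (0.00230 to 0.150).

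In tumors against wild type liver 10 of the 43 ratios turned their sign under 1 or more alternatives, namely those of C1qa, C1qc, C2, F5, F12, Kng1, Fgb, F3, Vwf and Plau. The largest was F5, from -0.47 to 0.09 with array weights and 0.02 without the 4 arrays. In peritumoral liver 14 turned, and 11 against peritumoral liver. Vwf was -0.0248 without the 3 arrays, and C2 was 0.0913 and Kng1 -0.00772 without the 4. With 1 array left out the ratio ran from -0.225 to 0.344 for C1qa, -0.174 to 0.398 for C1qc, -0.0832 to 0.223 for Kng1 and -0.295 to 0.433 for Vwf. Of the medians, C1q in tumors fell below 0 when wild type replicate 3 (-0.02), wild type replicate 5 (-0.17) or tumor replicate 3 (-0.03) was dropped, and rose above 0 against peritumoral liver without the 4 arrays (0.03). That of the hepatocyte-made factors in peritumoral liver turned with array weights or without the 3 arrays (0.02 each), and that of the inhibitors there with array weights (0.08), without peritumoral replicate 2 (0.08) or without the 3 arrays (0.09). The median of the inhibitors against peritumoral liver turned without tumor replicate 5 (0.06). Low signal limits F3, Plau and, outside tumors, Plat. The wild type means of Tfpi and Vwf, at 5.15 and 5.36, were also below the array medians.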

Other observations

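Several of the genes are neighbours in RefSeq's annotation of build GRCm38.p6, in which all 43 were found. F7 and F10 are adjacent on chromosome 8, and the tumor ratios were -1.03 for F7, which passed, and -0.44 for F10, which did not. F11 and Klkb1 are adjacent on the same chromosome, with tumor ratios of -0.75 and -1.16 and peritumoral ratios of -0.62 each. C8a and C8b are adjacent on chromosome 4, with tumor ratios of -2.33 and -1.23. C6 and C9, whose peritumoral samples were all below wild type liver, lie on chromosome 15 with 8 protein-coding genes between them. Mbl1 lies on chromosome 14 with 1 protein-coding gene between it and Mat1a, the gene deleted in the knockout. Its peritumoral samples overlapped with wild type liver, while its tumors all lay narrowly below wild type liver. These pairs were picked after the values were seen, and no test was made of position.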
